A study of Mus musculus with 6 samples.

Results

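Solute carriers are membrane proteins that move small molecules and ions, and their genes share the symbol Slc followed by a family number. In the transcriptomes of P/D spermatocytes and RS, 123 of 11517 annotated contigs carried such a symbol, and these 123 contigs belonged to 85 genes. A contig here is 1 annotated transcript to which reads were aligned. By gene family, 31 contigs of 20 genes encoded mitochondrial carriers of the Slc25 family, 65 contigs of 46 genes plasma membrane carriers and 25 contigs of 17 genes carriers of the Golgi, endosomes, lysosomes or vesicles. The remaining 2 contigs, of Slc4a1ap and Slc7a6os, encode proteins named after a neighbouring or interacting carrier and were set apart. The compartment follows the family or the gene name, and single members may also act elsewhere.

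P/D spermatocytes are meiotic cells in pachytene or diplotene, and RS are the haploid round spermatids that follow the meiotic divisions. Both were sorted by DNA content and light scatter from testes of adult wild-type C57BL/6J mice that had received no treatment, and each of the 3 samples per cell type held the mRNA of 3 mice. Native poly(A) RNA was read through nanopores, so that each read gave 1 molecule with its own tail, and the question asked of the data was how tails and accumulation change between the 2 stages. All 3 P/D samples were barcoded into 1 library and all 3 RS samples into a second, which means that cell type and library cannot be told apart. By the microscopy of the study, the P/D gate also held many other cells and was clearly less pure than the RS gate. The samples had 244004 to 474688 reads. Contigs of the P/D marker list took 0.320% to 0.369% of the reads in P/D samples and 0.166% to 0.189% in RS, those of the round spermatid list 0.0870% to 0.0994% and 0.348% to 0.367%, and those of the elongating spermatid list 0.303% to 0.380% and 2.47% to 3.04%. Markers of Sertoli cells had at most 4 reads in a sample, those of Leydig cells at most 7, and those of peritubular and blood cells had 0. The part of elongating spermatids in the results below was not tested.

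As background, germ cells beyond the blood-testis barrier depend on Sertoli cells for fuel, and lactate and pyruvate enter through monocarboxylate transporters while glucose and fructose enter through facilitative carriers of the Slc2 family. Inside the cell the Slc25 carriers exchange nucleotides, phosphate, metabolites and cofactors across the inner mitochondrial membrane. Later in spermiogenesis, sperm receive exchangers of sodium, protons and anions that serve motility and capacitation. A poly(A) tail is the run of adenosines at the 3′ end of an mRNA, where it binds proteins that act in translation and stability.

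The 123 contigs had 13400 reads in all, 8317 of them on plasma membrane, 3720 on mitochondrial and 1277 on intracellular carriers. In each sample between 102 and 118 of the contigs had at least 1 read. The coverage was uneven, since 53 contigs had fewer than 10 reads in every sample while 13 had at least 20 in every sample. None lay on the X chromosome, where 224 of all annotated contigs lay.

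Tails of solute carrier mRNAs were longer in RS, at about the rate of the transcriptome. Of the 123 contigs, 56 had at least 10 reads in 2 replicates of a cell type and entered the test, and 29 of them had longer tails in RS and 0 shorter (limma, adjusted p below 0.05). At an unadjusted threshold of 0.05, limma called 1 contig shorter, the coding contig of Slc2a3. Over all 6990 contigs tested, 54.2% were longer and 1.69% shorter in RS. The difference in mean tail was positive for 47 of the 56. The most negative was that of Slc33a1, at -52.9 nt from 1, 0 and 2 P/D reads (adjusted p = 0.23). The median difference was 32.5 nt over the 56 contigs and 37.4 nt over all contigs tested. Of the 53 contigs with a mean tail in all 6 samples, 33 had every RS sample above every P/D sample and 2 had every RS sample below, and over all 6464 such contigs the shares were 63.6% and 2.72%. Both contigs below were those of Slc2a3. With at least 20 reads required in every sample, 13 contigs were left, of which 11 were longer and 1 shorter.

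**Figure D1:**
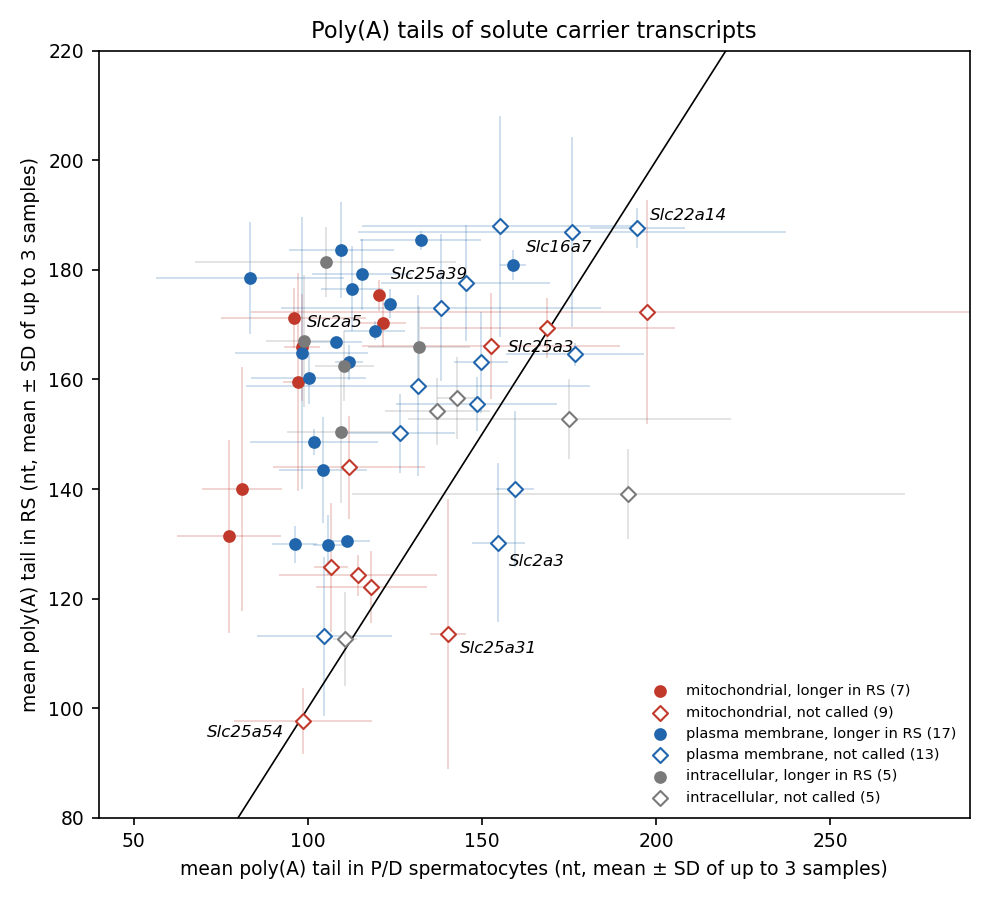
Mean poly(A) tail in nt of the 56 tested solute carrier contigs in P/D spermatocytes (horizontal axis) and RS (vertical axis), as mean ± SD of the samples with a mean (up to 3), with the line of equal tails. Filled circles are the 29 contigs with longer tails in RS by limma, open diamonds the 27 not called, and contigs below the line, all not called, include those of Slc2a3, Slc25a31 and Slc22a14.

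Accumulation moved in both directions. Of the 47 contigs that passed the count filter, 16 had more reads in RS and 11 fewer, against 32.6% and 30.8% of the 6005 contigs tested (edgeR, threshold 0.05 on the adjusted p). The median log2 fold change was 0.04 over the 47 contigs and -0.03 over all tested. In sorted populations, fewer cells of a type and less RNA per cell cannot be told apart. Accumulation and tail calls crossed freely. Of the 16 contigs with more reads in RS, 7 had longer tails and 9 were not called for tails. Of the 11 with fewer reads, 7 had longer tails and 4 were not called, namely both Slc2a3 contigs, Slc25a31 and Slc25a10.

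**Figure D2:**
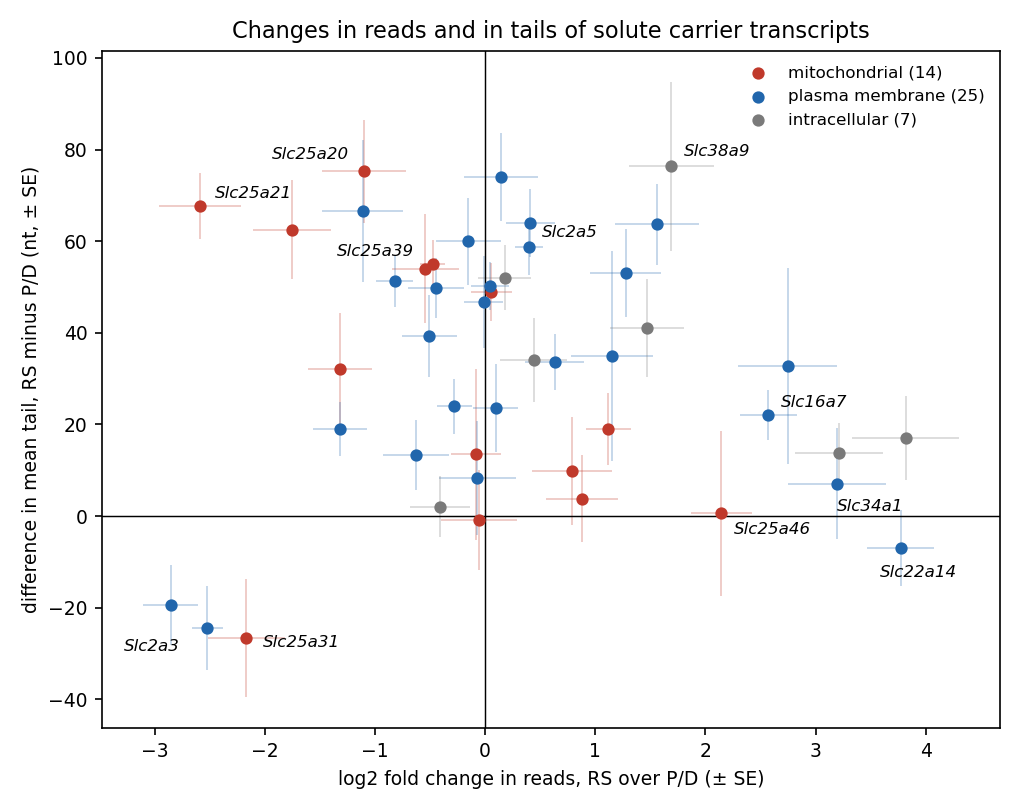
Difference in mean tail (RS minus P/D, nt, ± SE from limma) against the log2 fold change in reads (RS over P/D, ± SE from edgeR) for the 46 solute carrier contigs tested for both. Contigs with fewer reads in RS lie both at the top left (Slc25a21, with 67.6 nt) and at the bottom left (Slc2a3, with -24.5 nt), and the contigs with the largest gains in reads, such as Slc22a14, lie near a tail difference of 0.

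Mitochondrial and plasma membrane carriers had like shares of long tails when their reads were pooled, and Slc25 reads had the lower mean tail in every sample. Longer tails were called for 7 of 16 Slc25 contigs and 17 of 30 plasma membrane contigs, beside 54.2% of all contigs tested. The median differences were 25.6 nt and 33.3 nt, beside 37.4 nt over all contigs tested. Among Slc25 reads, tails of 120 to 210 nt, the class around the 150-nt peak of RS, made up 38.34%, 38.22% and 40.04% in P/D samples and 67.5%, 71.3% and 71.6% in RS samples. Among plasma membrane reads the shares were 40.52%, 38.58% and 38.95% in P/D samples and 73.0%, 70.7% and 73.0% in RS samples. All annotated contigs together rose from 29.6% ± 0.94 to 67.4% ± 1.00 (SD, n = 3 each), so both carrier groups lay above the transcriptome in P/D spermatocytes and near it in RS. Within a sample, the Slc25 share minus the plasma membrane share was -2.18, -0.36 and 1.09 percentage points in P/D spermatocytes and -5.54, 0.61 and -1.41 in RS, so that the sign of this measure varied between samples of the same cell type. The mean tail of Slc25 reads minus that of plasma membrane reads was -15.9, -5.06 and -7.77 nt in P/D spermatocytes and -3.58, -2.58 and -0.41 nt in RS. The difference between the 2 groups of carriers was not tested.

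These shares rested on a few genes, in P/D spermatocytes for both groups and in RS for Slc25. Without Slc2a3 and Slc2a5, which are the plasma membrane genes with most reads, the plasma membrane share in P/D spermatocytes was 31.7% ± 0.060 (SD, n = 3), and in RS it was 71.5% ± 1.6. In P/D spermatocytes such tails were more frequent on the coding Slc2a3 contig than on Slc2a5, as given below. Without Slc25a39, the Slc25 share was 30.01% ± 1.6 in P/D spermatocytes and 56.2% ± 3.6 in RS. That RS share, from 52.3% to 59.5% in the 3 samples, was below the 66.3% to 68.2% of all annotated contigs and below the plasma membrane share in every RS sample.

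**Figure D3:**
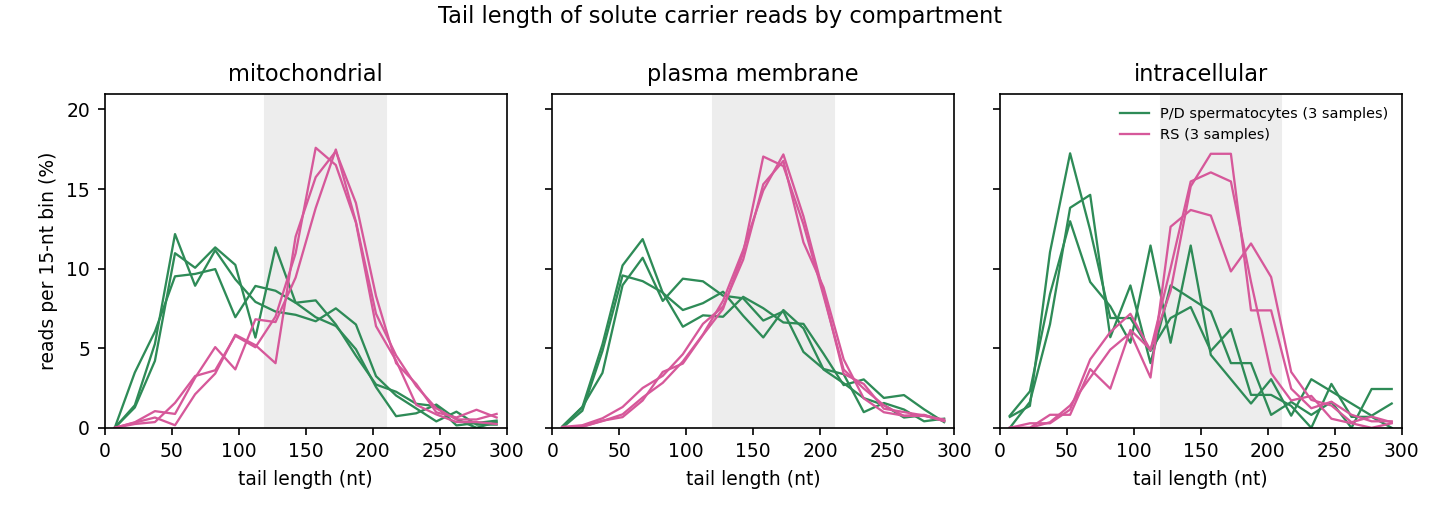
Share of reads in 15-nt bins of tail length (0 to 300 nt) for mitochondrial, plasma membrane and intracellular solute carriers, with a line for each of the 3 P/D and 3 RS samples and the class of 120 to 210 nt shaded. In each panel the RS lines peak within the shaded class and the P/D lines spread more broadly, with more reads below 120 nt than in RS.

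Accumulation is given in CPM, the reads of a contig scaled to the total deposited reads of its sample, without division by length. Slc25 carriers together had 2020, 2164 and 2016 CPM in P/D samples and 1806, 1749 and 1730 in RS samples, and plasma membrane carriers had 4582, 4550 and 4485 and then 4225, 3870 and 3975. Both sums were lower in every RS sample. Removing Slc2a3 and Slc2a5 turned the plasma membrane sum around, from 2671 ± 122 in P/D spermatocytes to 3101 ± 70.9 CPM in RS (SD, n = 3 each). Of these genes, Slc2a3 fell in RS and Slc2a5 rose, as given below. Removing Slc25a39 left 956 ± 93.5 and 917 ± 32.9 CPM for Slc25, which overlapped. Intracellular carriers had 487 ± 15.5 and 769 ± 32.7 CPM, with every RS sample higher.

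The ends of the annotated transcripts on which the main results turn are given here as RNA-strand sequence from GENCODE vM21 on GRCm38, 5′ to 3′, all in the last exon, with the polyadenylation hexamer AATAAA in capitals where it was found. They are the hexose carriers of opposite behaviour, 2 ends of the lactate carrier Slc16a7, the strongly rising Slc22a14, and the mitochondrial carriers Slc25a39 and Slc25a31. The stretch of the coding Slc2a3 contig begins at its hexamer, which is followed by 28 bases up to the annotated end, so the last bases are not shown.
Slc2a3, coding contig, chr6:122727813-122727842, minus strand: AATAAAacttctgaatgtatgtgtcatgtc
Slc2a3, contig with a retained intron, chr6:122727826-122727855, minus strand: gtttctgttttgaAATAAAacttctgaatg
Slc2a5, chr4:150144140-150144169, plus strand: atacatagAATAAAgattctttggcatcga
Slc16a7, contig with most reads, chr10:125227487-125227516, minus strand: tcataaagaAATAAAtggatttgaaaaaat
Slc16a7, longest contig, chr10:125219270-125219299, minus strand: taatgtcaacatgaaagatatatacaacaa
Slc22a14, chr9:119169455-119169484, minus strand: cactccAATAAAatatcatgttggtcttga
Slc25a39, chr11:102402985-102403014, minus strand: gccaggactacacagccaaattctatcttc
Slc25a31, chr3:40726067-40726096, plus strand: gacaattatttaaAATAAAtggtattactc
The last 40 bases of the transcript held AATAAA in 81 of the 122 solute carrier contigs found in the annotation (66.4%), and in 59.3% of 11344 annotated contigs. The variant ATTAAA was in 18.9% and 16.8%. The search was on the transcript strand only, a transcript can hold both, and the absence of the letters says only that they are not in this window. Slc2a3, whose tail difference was negative, and Slc2a5, whose tail lengthened, both had AATAAA, and the strongly lengthened Slc25a39 had neither hexamer in its annotated end.

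Slc2a3 and Slc2a5, for the glucose carrier GLUT3 and the fructose carrier GLUT5, moved apart. The coding Slc2a3 contig (chromosome 6, 122727809 to 122742745, 10 exons) had 288, 302 and 295 reads in P/D samples and 61, 72 and 75 in RS samples, although RS libraries were deeper. This was 1085 ± 96.6 and 185 ± 30.2 CPM (SD, n = 3 each). The log2 fold change was -2.52 (SE 0.14, adjusted p = 3.06e-19, edgeR). Its mean tails were 163.5, 151.0 and 149.6 nt in P/D samples and 138.8, 113.5 and 138.3 nt in RS samples, without overlap. The difference of -24.5 nt (SE 9.2) missed the threshold over all contigs (adjusted p = 0.063, limma) and passed it over the contigs with 20 reads or more per sample (adjusted p = 0.013) and when reads were pooled per gene (-23.4 nt, adjusted p = 0.034).

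In P/D spermatocytes the Slc2a3 tail was longer than that of 98.7% of the 1827 contigs that had 20 reads or more per sample, and in RS longer than that of 17.8%. Of these contigs, 1.204% had a lower difference. Tails of 120 to 210 nt were 58.0% ± 2.4 of its P/D reads and 41.9% ± 3.8 of its RS reads (SD, n = 3 each). The second Slc2a3 contig, a transcript with a retained intron whose annotated end overlaps that of the coding contig, fell from 68, 61 and 64 reads to 9, 15 and 12. Its log2 fold change was -2.85 (SE 0.25, adjusted p = 3.22e-13), and its tail moved from 159 ± 5.5 to 140 ± 14.2 nt, which was not called (adjusted p = 0.11).

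Slc2a5 (chromosome 4, 150119283 to 150144169, 14 exons) had 127, 169 and 153 reads in P/D samples and 262, 283 and 247 in RS samples. The increase was modest at a log2 fold change of 0.40 (SE 0.13, adjusted p = 0.0053). Its mean tails were 112.1, 99.6 and 113.0 nt in P/D samples and 166.4, 167.8 and 166.6 nt in RS samples, a difference of 58.7 nt (SE 6.2, adjusted p = 6.3e-04). The share of its tails at 120 to 210 nt rose from 33.4% ± 4.4 to 84.5% ± 0.31 (SD, n = 3 each). In RS the Slc2a5 samples lay closer together (SD 0.73 nt) than the Slc2a3 samples (SD 14.5 nt). The intracellular hexose carrier Slc2a8 (GLUT8) had tails of 111 ± 3.4 and 113 ± 8.6 nt and 21, 24 and 21 against 19, 24 and 24 reads, and neither passed a test (adjusted p = 0.82 and 0.19).

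The monocarboxylate carrier with most reads rose in both measures. Slc16a7, for the lactate and pyruvate carrier MCT2, was split over 4 contigs with 643 reads, 3 of which share nearly the same annotated 3′ end while the longest ends elsewhere, as in the sequences above. Pooled over the gene, reads rose with a log2 fold change of 2.12 (SE 0.17, adjusted p = 2.99e-14, edgeR) and the tail by 39.8 nt (SE 5.4, adjusted p = 0.0012, limma). The contig with most reads (chromosome 10, 125227487 to 125308816) had 6, 21 and 10 reads in P/D samples and 93, 95 and 106 in RS samples, a log2 fold change of 2.57 (SE 0.26). Its tails were 163.1, 155.6 and 158.2 nt in P/D samples and 177.9, 182.2 and 182.9 nt in RS samples. That difference of 22.03 nt was called (adjusted p = 0.015), but not with the replicate number as a block (adjusted p = 0.059) or with median tails, where it was 8.81 nt (adjusted p = 0.24). The longest contig rose from 8, 9 and 12 to 22, 52 and 23 reads, with tails of 132 ± 17.3 and 185 ± 1.8 nt (adjusted p = 0.0043). In RS, all 4 contigs had mean tails between 179 and 187 nt.

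Carriers of organic ions moved both ways in reads, with 2 of 6 contigs tested higher and 2 lower in RS. This is near the 32.6% and 30.8% of all contigs tested. Slc22a14, a testis member of this family (chromosome 9, 119169455 to 119190407), had 6, 6 and 2 reads in P/D samples and 89, 95 and 78 in RS samples. The rise from 17.2 ± 8.9 to 233 ± 42.3 CPM was a log2 fold change of 3.77 (SE 0.31, adjusted p = 3.74e-14, edgeR). Its tails were 182.1, 192.6 and 209.1 nt in the few P/D reads and 190.5, 183.5 and 188.9 nt in RS, with overlap (adjusted p = 0.51). Which cells of the P/D gate gave those few reads was not tested.

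Of the carnitine carriers, Slc22a21 fell from 72, 87 and 77 reads to 49, 75 and 57 in the deeper RS libraries, a log2 fold change of -0.82 (SE 0.17, adjusted p = 4.4e-05), while its tail rose from 112 ± 4.1 to 163 ± 3.2 nt (adjusted p = 6.79e-04). The main Slc22a16 contig had by coincidence the same P/D counts, with no read in common, and 68, 120 and 77 reads in RS, where it was not called (log2 fold change -0.28, adjusted p = 0.12). Its tail rose from 106 ± 4.5 to 130 ± 5.5 nt (adjusted p = 0.016), a call lost without RS replicate 1 or 3 (adjusted p = 0.051 and 0.050), and the second contig of the gene had the same RS value, 130 ± 3.4 nt. That second contig had more reads in RS by edgeR (log2 fold change 0.63, adjusted p = 0.037) but not by DESeq2 (adjusted p = 0.16) or without P/D replicate 1 or 3 or RS replicate 2 or 3. Slc22a15 gained 74.0 nt of tail (SE 9.6, adjusted p = 0.0012) without a call for reads. Slc13a5, a citrate carrier, fell from 39, 39 and 46 reads to 20, 22 and 25 (log2 fold change -1.32, adjusted p = 8.23e-06). Its tail gained 19.1 nt (adjusted p = 0.034), a call lost with the replicate block (adjusted p = 0.086) and without either of P/D replicates 2 and 3 or any RS replicate.

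**Figure D4:**
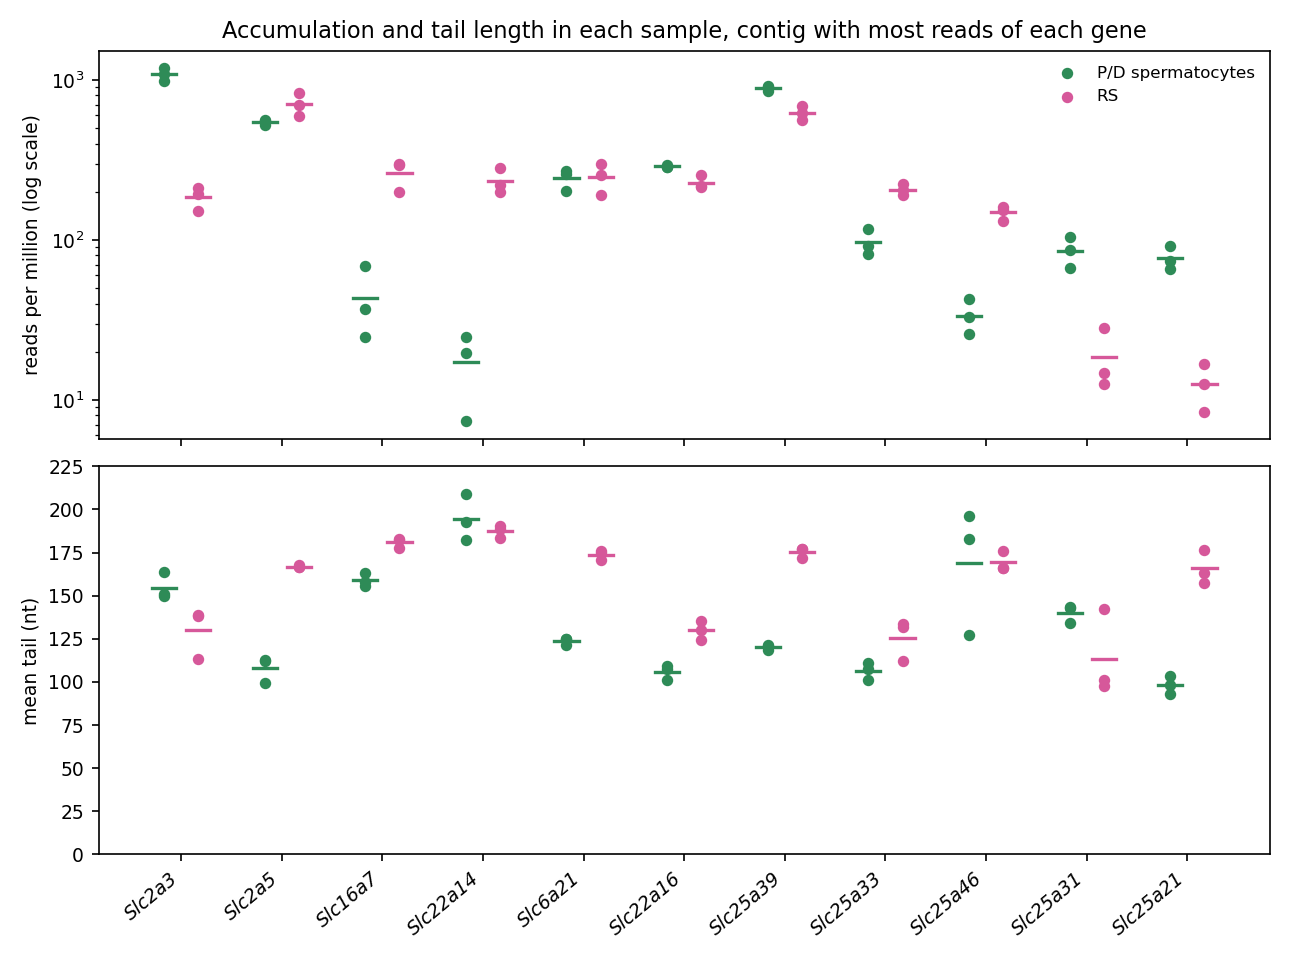
CPM (top, log scale) and mean tail in nt (bottom) in each of the 3 P/D and 3 RS samples for 11 solute carrier genes, each by its contig with most reads, with bars at the group means. Slc2a3, Slc25a31 and Slc25a21 are lower in RS and Slc16a7, Slc22a14 and Slc25a46 higher, while Slc2a5, Slc6a21 and Slc25a39 gain tail with smaller changes in reads.

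For the ion and proton carriers known from sperm, no change in accumulation was called with all samples in the test. Slc9b1 and Slc9c1 encode sodium and proton exchangers of sperm, and Slc26a8 an anion carrier needed for sperm motility. Slc9b1 had 43, 70 and 59 reads in P/D samples and 60, 109 and 63 in RS samples (log2 fold change -0.01, SE 0.18), and its tail rose from 102 ± 18.3 to 149 ± 2.4 nt (adjusted p = 0.0084, limma). Slc9c1 had a log2 fold change of 0.10 (SE 0.20) and tails of 127 ± 15.8 and 150 ± 7.2 nt. That difference of 23.6 nt was not called (adjusted p = 0.079), although the samples of the 2 cell types did not overlap. It was called with median tails (adjusted p = 0.042), on the log2 scale (0.024), with either stricter read filter (0.040 and 0.020) and without P/D replicate 1 (0.020). The main Slc26a8 contig had tails of 109.4, 125.7 and 122.4 nt in P/D samples and 169.0, 170.6 and 167.1 nt in RS samples, an increase of 49.7 nt (SE 6.5, adjusted p = 0.0012). Its reads were not called (log2 fold change -0.45, adjusted p = 0.12, edgeR), but were called lower in RS without P/D replicate 1 (-0.67, adjusted p = 0.034). Another Slc26a8 contig had a tail difference of 27.2 nt that was not called (adjusted p = 0.39, limma). It was called with median tails (51.9 nt, adjusted p = 0.036).

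The sodium phosphate carriers did not share a direction. Slc34a1 had 4, 1 and 2 reads in P/D samples and 25, 31 and 34 in RS samples (log2 fold change 3.20, SE 0.44, adjusted p = 4.02e-08, edgeR). Slc34a2 had 18, 18 and 21 and then 13, 21 and 16 reads and was not called (log2 fold change -0.63, adjusted p = 0.063). Their tails were not called, at 149 ± 23.1 and 156 ± 4.9 nt for Slc34a1 and 150 ± 7.8 and 163 ± 9.2 nt for Slc34a2. Slc9b2 and Slc36a3, also known from sperm, had no contig in the data.

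Among the 16 contigs of amino acid carriers, 5 of the 6 tested for tails were longer in RS, with a median difference of 62.0 nt, beside 54.2% of all contigs. Most of these 5 are contigs of 1 gene, Slc6a21, whose annotated 3′ ends nearly coincide, so they are not separate carriers. Of the 5 tested for reads, 2 rose and 0 fell (edgeR, also 0 lower at an unadjusted p under 0.05), beside 32.6% and 30.8% of all contigs. Slc6a21, an orphan member of the Slc6 family, had 63, 82 and 55 reads on its main contig in P/D samples and 95, 90 and 90 in RS samples, with no call (log2 fold change 0.04). The tails of that contig were 124.9, 121.1 and 124.6 nt and then 175.8, 174.8 and 170.8 nt, a difference of 50.2 nt (SE 5.3, adjusted p = 6.38e-04, limma). The other 2 Slc6a21 contigs gained 64.0 and 95.1 nt, the last from 1, 2 and 1 P/D reads. Slc6a16 gained 59.96 nt (SE 9.5, adjusted p = 0.0025). Slc6a6, the taurine carrier, rose from 1, 2 and 4 to 19, 25 and 22 reads (log2 fold change 2.75, SE 0.45), and its tail was not called (adjusted p = 0.24). Slc38a9, the lysosomal arginine sensor, rose in reads (log2 fold change 1.69, SE 0.38, adjusted p = 1.82e-04) and in tail, from 73.2, 95.5 and 146.6 nt to 174.0, 185.7 and 184.6 nt (adjusted p = 0.014).

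Among metal carriers, 4 of 6 contigs tested for tails were longer in RS, near the 54.2% of all contigs. Of 6 tested for reads, 1 rose and 1 fell, beside 32.6% and 30.8%. Both contigs of Slc30a3, a zinc carrier of vesicles, were longer, by 52.05 nt (SE 7.1, adjusted p = 0.0014) and 34.04 nt (SE 9.2, adjusted p = 0.021), and neither changed in reads by the test. Of the zinc importers, Slc39a6 gained 39.2 nt without a call for reads, Slc39a3 gained 66.6 nt and fell (log2 fold change -1.11, adjusted p = 0.0080), and Slc39a10 rose (log2 fold change 1.15, adjusted p = 0.0062) with tails of 138 ± 46.02 and 173 ± 13.5 nt. The main contig of Slc30a4, another zinc exporter, had 0 reads in all P/D samples and 10, 19 and 9 in RS samples. Taking 3 reads over the P/D group as the limit, it was at least 9.07-fold higher in RS, with counting error as the only error.

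Nucleotide sugar carriers of the Golgi and their relatives rose on each of the 3 contigs tested for reads, beside 32.6% of all contigs tested. Both contigs of Slc35g3, which share their annotated 3′ end, are among these 3. Slc35g3 had 3, 2 and 3 reads on one contig in P/D samples and 33, 42 and 29 in RS samples, and 2, 1 and 1 and then 23, 32 and 27 on the other. The log2 fold changes were 3.21 (SE 0.40) and 3.82 (SE 0.48), and summed over the gene 3.54 (SE 0.32, adjusted p = 9.19e-13, edgeR). Its tails were 143 ± 5.9 and 157 ± 7.4 nt on the first contig and were not called (adjusted p = 0.13). Slc35a3 rose from 4, 9 and 9 to 23, 33 and 27 reads (log2 fold change 1.47, SE 0.34) with a tail gain of 41.02 nt (adjusted p = 0.018, and 0.051 without RS replicate 3 as well as with median tails). Slc35b1 gained 68.3 nt (SE 9.1, adjusted p = 0.0013) on 6 to 12 reads per sample.

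Among the Slc25 carriers tested for reads, 3 of 14 contigs rose and 6 fell, with a median log2 fold change of -0.28. Over all contigs tested, 32.6% rose and 30.8% fell, with a median of -0.03. Slc25a39, which brings glutathione into mitochondria, had most reads of this family, 1878 on 4 contigs. Its main contig (chromosome 11, 102402985 to 102407544, 12 exons) had 209, 279 and 245 reads in P/D samples and 218, 268 and 222 in RS samples, which is 890 ± 29.7 and 625.5 ± 62.0 CPM (log2 fold change -0.47, SE 0.11, adjusted p = 4.08e-04, edgeR). Its tails were 121.0, 121.6 and 118.4 nt in P/D samples and 177.1, 172.0 and 176.9 nt in RS samples. The gain of 55.0 nt (SE 5.3, adjusted p = 5.39e-04, limma) came with a shift of the share at 120 to 210 nt from 46.1% ± 1.1 to 84.2% ± 1.8 (SD, n = 3 each). The second contig has the same annotated 3′ end and gained 48.9 nt (adjusted p = 0.0012), with no call for reads (log2 fold change 0.06, adjusted p = 0.81).

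The ADP/ATP carriers were represented by the germ cell form. Slc25a31, for ANT4, which exchanges ADP and ATP in male germ cells, had 21, 32 and 18 reads in P/D samples and 4, 7 and 10 in RS samples, a log2 fold change of -2.17 (SE 0.35, adjusted p = 8.37e-07, edgeR). Its tails were 143.6, 142.8 and 134.2 nt in P/D samples and 97.7, 100.9 and 142.0 nt in RS samples, so that 1 RS sample overlapped. The difference of -26.7 nt was not called (adjusted p = 0.13, limma), and without RS replicate 3 it was -40.9 nt (adjusted p = 0.0068). Slc25a4, for the ANT1 form of heart and muscle, had 0, 1 and 0 and then 0, 1 and 1 reads. Slc25a5 had no contig in the data.

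Slc25a21 and Slc25a20 fell in reads while their tails lengthened. Slc25a21, a carrier of oxodicarboxylates, had 16, 28 and 20 reads in P/D samples and 4, 4 and 6 in RS samples (log2 fold change -2.59, SE 0.38, adjusted p = 1.06e-07), and its tail rose from 98.3 ± 5.2 to 166 ± 9.8 nt (adjusted p = 6.54e-04). Slc25a20, for acylcarnitines, fell with a log2 fold change of -1.10 (adjusted p = 0.011) and gained 75.2 nt (SE 11.2). Slc25a10, the dicarboxylate carrier, fell from 22, 30 and 24 to 10, 16 and 15 reads (log2 fold change -1.32, adjusted p = 1.26e-04). Its tail difference of 32.1 nt was not called (adjusted p = 0.066), and was called with the replicate block (adjusted p = 0.034). Slc25a1, for citrate, gained 58.8 nt from 81.2 ± 11.5 nt and had too few reads for the count test.

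Other mitochondrial members rose or stayed. Slc25a33, for pyrimidine nucleotides, rose from 20, 36 and 25 to 65, 106 and 68 reads (log2 fold change 1.12, SE 0.20, adjusted p = 7.28e-06), with tails of 107 ± 4.8 and 126 ± 11.9 nt that were not called (adjusted p = 0.083). This tail difference was called with median tails (adjusted p = 0.045), on the log2 scale (0.036), with either stricter read filter (0.039 and 0.018) and without RS replicate 1 (0.031). Slc25a46, a protein of the outer mitochondrial membrane that belongs to the family, rose from 8, 13 and 7 to 51, 62 and 55 reads (log2 fold change 2.14, SE 0.27, adjusted p = 7.47e-09). Of its 196 reads, 40 were also listed on other contigs. Its tails were 196.4, 182.7 and 127.3 nt in P/D samples and 166.2, 175.7 and 166.2 nt in RS samples, with wide overlap. A contig of Slc25a2, for ornithine, had more reads in RS (log2 fold change 0.88, adjusted p = 0.018), a call lost with DESeq2 (adjusted p = 0.12) and on leaving out P/D replicate 1 or 2 or RS replicate 2 or 3. Summed over both contigs of the gene, the log2 fold change was 0.90 (adjusted p = 9.56e-04). The tails of the contig were not called, at 118 ± 15.9 and 122 ± 6.6 nt.

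The phosphate carrier Slc25a3 and the calcium-regulated carrier Slc25a54 did not pass either test. Slc25a3 had 29, 33 and 30 reads in P/D samples and 37, 51 and 30 in RS samples. Its P/D tails of 114.2, 155.4 and 188.2 nt differed between samples by more than any change to RS, at 166 ± 9.7 nt. Slc25a54 had the shortest RS tail of the 56 contigs tested, at 97.7 ± 6.1 nt, and 98.6 ± 19.8 nt in P/D spermatocytes. Of the mitoferrins, which carry iron, Slc25a28 gained 54.0 nt (SE 11.9, adjusted p = 0.0095). The main contig of Slc25a37 had 0 reads in P/D samples and 6, 7 and 5 in RS samples, at least 4.29-fold higher with 3 reads over the P/D group as the limit.

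Among the 13 contigs with at least 20 reads in every sample, the difference in tail varied widely. It ran from -24.5 nt for Slc2a3 to 64.0 nt for a Slc6a21 contig, and 76.2% of the 1827 contigs of that depth had a smaller difference than the latter. Slc25a3, Slc13a5, Slc25a33, Slc9c1 and the main Slc22a16 contig had differences between 13.4 and 23.9 nt, of which those of Slc25a3, Slc25a33 and Slc9c1 were not called, and at most 19.98% of those contigs had a smaller one. Slc13a5, Slc25a33, Slc22a16 and Slc2a3 had RS tails between 126 and 130 nt, and at most 18.3% of the contigs of that depth had shorter ones. Slc25a39, Slc2a5 and Slc6a21 had RS tails between 167 and 177 nt.

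Other genes of transport were taken from a fixed list of 27 genes, of which 16 had a contig. Of 10 tested contigs of mitochondrial genes, 9 had longer tails in RS, with a median difference of 50.6 nt, and of 4 plasma membrane contigs 3 did, beside 54.2% of all contigs tested. Those not called were Timm10 and Atp1a4. The subunit Mpc2 of the mitochondrial pyruvate carrier gained 65.9 nt (adjusted p = 4.9e-04), and the porins Vdac2 and Vdac3 gained 38.1 and 64.6 nt. The main contig of Bsg, for basigin, which escorts monocarboxylate carriers to the membrane, gained 72.2 nt (adjusted p = 4.9e-04) and had fewer reads in RS (log2 fold change -0.36, adjusted p = 0.033). The second Bsg contig had 18, 18 and 17 and then 22, 57 and 28 reads and was not called (log2 fold change 0.55, adjusted p = 0.071). The sperm sodium pump subunit Atp1a4 rose from 6, 5 and 6 to 89, 147 and 98 reads (log2 fold change 3.82, SE 0.26), with tails of 165 and 174 nt that were not called.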

How the data were processed

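The authors sequenced native poly(A) RNA of 3 P/D and 3 RS samples, aligned the reads with minimap2 (2.20-r1061 per the labels) to GENCODE transcripts of GRCm38 and estimated tails with Nanopolish. They deposited raw read counts per contig and another table that lists each read with its tail in nt. Counts and tail reads agreed for all 12114 contigs, of which 597 were repeat elements and were not tested. Members were taken by symbol. The members, their compartments and the lists were chosen with earlier results of these data known. Annotation was GENCODE vM21, where 122 of the 123 contigs were found, 121 with the same symbol.

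Tails were tested with limma 3.58.1 on the mean per contig and replicate, where 2 or more replicates of either cell type had 10 reads or more and both cell types had 2 or more means. For counts the test was edgeR 4.0.16 (TMM, filterByExpr, quasi-likelihood test), with DESeq2 1.42.0 as an alternative, in R 4.3.3. Adjusted p-values are Benjamini-Hochberg values over all contigs tested, with a threshold of 0.05. The SE of a log2 fold change is its size over the root of edgeR's F. CPM values are per total deposited reads and are not divided by length. Reads of similar isoforms could be split between contigs, and 58 of 13400 solute carrier reads were listed on more than 1. Tail classes include the lower bound. Both tests were tested on simulated data.

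The named genes were the 8 Slc25, 10 plasma membrane and 6 intracellular genes with most reads (by their main contig), the 5 largest tail changes each way with at least 10 reads in every sample, the 6 highest and 6 lowest fold changes with 20 reads or more in each sample of the higher cell type, and fixed ADP/ATP and sperm carriers. One gene that this rule names is not reported here. Slc6a6, the zinc importers, Slc34a2, Slc22a15, Slc25a1, Slc25a20, Slc25a21, Slc25a37, Slc25a54, Slc30a4 and Slc33a1 were named after their values were seen. Per the study, P/D spermatocytes and RS were taken from shared mice. The deposited samples are pools of mice, and neither the labels nor the study say that same-numbered samples share a pool. The deviations of same-numbered samples from their group means correlated at 0.0282, 0.237 and 0.0687 for log2 CPM and -0.0106, 0.0771 and 0.0157 for tails over 1827 contigs, so the fits have no block. Alternatives were other filters, scales and normalizations, counts per gene, the replicate block and leaving out each sample.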

Additional observations from a re-analysis of the deposited data

Results flagged for a closer look

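Reads that the selection by symbol leaves out were found on 2 contigs that GENCODE vM21 gives an Slc symbol. A Slc22a14 contig without a symbol in the deposited table had 67 reads, 2, 0 and 1 in P/D samples and 18, 22 and 24 in RS samples (log2 fold change 3.84, SE 0.55, adjusted p = 8.71e-08, edgeR), beside 3.77 for the Slc22a14 contig in the report. Its mean tail was 188 ± 6.2 nt in RS (SD, n = 3) and the difference was not called (adjusted p = 0.076, limma). Slc9a3r1, a scaffold protein that the deposited table names Nherf1, had 62 reads, 2, 2 and 1 in P/D samples and 13, 20 and 24 in RS samples (log2 fold change 3.00, SE 0.50, adjusted p = 1.33e-06). Its tails, 123 ± 23.7 nt before and 144 ± 7.6 nt after the divisions, were not called (adjusted p = 0.22). With 3 samples a group, samples far from the others were not looked for.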

How the results depend on the processing

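The read filters moved the counts of calls most, since they changed which contigs were tested. Where each sample had 20 reads or more, 11 of 13 solute carrier contigs were longer in RS, 3 of 4 for Slc25 and 8 of 9 for the plasma membrane. The count of shorter contigs was 1 under that filter, with 10 reads asked of 2 replicates in each cell type, on the log2 scale and per gene. Without any count filter, 26 contigs rose and 17 fell, for Slc25 6 rose, and for the plasma membrane 14 rose and 8 fell. With at least 10 counts in every sample, 5 rose and 5 fell, for Slc25 1 and 2, and for the plasma membrane 3 and 3. Per gene, 3 plasma membrane genes fell. The methods' t-test called 29 contigs longer at an unadjusted threshold and 27 after Benjamini-Hochberg, which lost Slc38a9 (adjusted p = 0.053) and Slc35a3 (0.052).

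The RS minus P/D share of tails of 120 to 210 nt was 31.3 percentage points for Slc25. It was 18.8 with an upper bound of 180 nt, 35.3 with none, 27.2 with contigs weighted equally and 26.2 without Slc25a39. For the plasma membrane it was 32.9, and 21.6 with the bound of 180 nt, 30.2 with equal weights and 39.8 without Slc2a3 and Slc2a5. The difference in CPM was -305 for Slc25 and -39.6 without Slc25a39, and -516 for the plasma membrane and 431 without Slc2a3 and Slc2a5, which reversed it. The settings without these genes were chosen after seeing the data.

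Leaving out each replicate gave 25 to 29 longer and 0 to 1 shorter contigs, with 5 to 8 longer for Slc25 and 15 to 19 for the plasma membrane. The shorter contig was Slc35a5 without P/D replicate 2 and Slc25a31 without RS replicate 3, and in the other settings above it was Slc2a3. Leaving out replicates also gave 15 to 19 contigs with more reads and 11 to 13 with fewer, 2 to 3 and 5 to 7 for Slc25, and 8 to 11 and 5 to 6 for the plasma membrane. The share differences ranged from 30.5 to 32.6 for Slc25 and from 32.5 to 33.7 for the plasma membrane, and the differences in CPM from -330 to -257 and from -617 to -439. With the replicate number as a block, 28 contigs were longer and 0 shorter, and 17 had more and 11 fewer reads. Among named contigs the block changed the tail calls of Slc16a7, Slc13a5 and Slc25a10 given above. Low counts limit most members, since 53 had fewer than 10 reads in every sample.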
